A study of Mus musculus with 6 samples.

Results

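Sftpd, Matn2 and Crispld2 encode 3 proteins that cells release to the outside, and in islets their transcripts were among the most increased of pregnancy. They were followed here through all 6 of their probe sets (1 for Sftpd, 2 for Matn2, 3 for Crispld2), taken from the 45101 probe sets of an Affymetrix mouse array by their single gene symbol in the platform annotation. The 3 genes had been picked for their rise between the same groups, so their own pregnancy differences are described without a test. Islets, the endocrine cell clusters of the pancreas, were isolated by collagenase digestion from pregnant mice at 12.5 days post coitum (dpc; 3 arrays) and from non-pregnant mice at 0 dpc (3 arrays), in a study that asked what makes islets grow in pregnancy. The labels give no strain, age, genotype or other treatment. Whether each array stands for a different animal is not stated either, so the errors and p-values cover the spread between arrays and may be of technical origin.

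Surfactant protein D, the product of Sftpd, is a collectin: a collagen-like stalk joined to a lectin head that binds sugars on microbes. It is best known as a secretion of the lung, although several glandular and mucosal epithelia make it. Matrilin-2, the product of Matn2, is an adaptor of the extracellular matrix whose von Willebrand factor A domains and EGF-like repeats link collagens, laminins and other matrix proteins. Crispld2 belongs to the CAP superfamily of secreted cysteine-rich proteins and carries LCCL domains. It was first described in the fetal rat lung as a gene induced by glucocorticoids.

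Of the 3 genes, the RefSeq promoter table held Crispld2. Its 250 bases before the transcription start (GRCm38.p6, chr8:119992188-119992437, plus strand) are shown because elements for the hormones and cytokines of pregnancy can be looked for in them, with the matched motif in capitals, 5′ to 3′.
Crispld2: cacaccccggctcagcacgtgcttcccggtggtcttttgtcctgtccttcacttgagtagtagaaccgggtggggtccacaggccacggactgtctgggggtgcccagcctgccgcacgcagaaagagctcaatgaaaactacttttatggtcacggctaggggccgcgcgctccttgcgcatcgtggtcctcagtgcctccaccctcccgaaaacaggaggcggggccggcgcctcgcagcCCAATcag
This stretch was 63.2% G or C. The capitals mark 1 CCAAT box (CCAAT), 4 to 8 bases before the start, a motif found on either strand in 33.8% of 32851 promoters of the same length. The letters of a STAT element (TTCNNNGAA, in 7.02% of promoters), an AP-1 element (TGANTCA, 6.75%), an estrogen receptor palindrome (GGTCANNNTGACC, 0.0639%) and a palindrome shared by the glucocorticoid and progesterone receptors (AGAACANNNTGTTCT, 0.00913%) are not in this window. Nor are those of a GC box (GGGCGG, 32.7%) or a TATA box (TATAAA, 12.4%). No motif overlapped another.

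Each value is a MAS5 signal, a background-corrected intensity on a linear scale, and every array had a 2% trimmed mean of 500.003. The signals of 3 control probe sets for a bacterial transcript, which islets lack, reached 32.3. Log2 differences are pregnant minus non-pregnant means of log2(signal + 16), a scale that understates the change of dim probe sets. Beta cell markers had summed signals of 180194 to 182434 on pregnant and 172165 to 183531 on non-pregnant arrays, and were bright in both groups. Markers of acinar cells, the exocrine neighbours of islets, went down in pregnancy. Of 20 tested, 17 passed as lower in the fit described below and 0 as higher, beside 5.79% and 6.10% of all genes tested. The summed signals of these markers were 124591 to 203439 on pregnant and 213660 to 405129 on non-pregnant arrays. In whole islets, fewer cells of a type and less RNA per cell cannot be told apart.

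Sftpd showed the largest change of the trio. Its probe set read 2356.3, 3509.5 and 2840.1 on pregnant replicates 1, 2 and 3, against 60.6, 75.4 and 72.6 on non-pregnant replicates 1, 2 and 3. The lowest pregnant array was 31.3 times the highest non-pregnant array, and all non-pregnant signals lay above the brightest bacterial control. The means were 2902 ± 579 in pregnant and 69.5 ± 7.86 in non-pregnant islets (SD, n = 3 each), a ratio of 41.7 that rests on a dim non-pregnant signal. On the log2 scale the difference was 5.08 ± 0.15 (standard error of the fit), the third highest of 12914 genes tested. Within pregnancy the log2 values of Sftpd had an SD of 0.29, against 0.13 for the brightest Matn2 and 0.16 for the brightest Crispld2 probe set. With a single probe set, the measurement of Sftpd has no second reading on the array.

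Matn2 was already well expressed without pregnancy, and its 2 probe sets gave the same picture. The brighter, 1455978_a_at, read 3616.1, 4234 and 3607.7 on pregnant arrays and 542.3, 501.5 and 595.4 on non-pregnant arrays. The other, 1419442_at, read 3453.8, 3203.2 and 3125.8 on pregnant arrays and 458.9, 492.4 and 528.3 on non-pregnant arrays. No pregnant array came near a non-pregnant one in either: the lowest pregnant signal was 6.06 and 5.92 times the highest non-pregnant signal. The log2 differences were 2.77 ± 0.09 and 2.69 ± 0.08, and the mean signals had ratios of 6.99 and 6.61. These differences were 0.08 apart, less than the SD between arrays of the log2 contrast between the probe sets (0.17 in pregnant and 0.11 in non-pregnant islets). The order of the pregnant arrays was not shared, since replicate 2 was the brightest by one probe set and replicate 1 by the other.

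Crispld2 was higher on every pregnant array in all of its probe sets, by amounts that varied among them. The brightest, 1437056_x_at, read 1357, 1127.7 and 1116.6 on pregnant arrays and 149.6, 216.6 and 121.1 on non-pregnant arrays, a ratio of means of 7.39 and a log2 difference of 2.80 ± 0.18. The next, 1434758_at, read 761, 778.8 and 683.1 on pregnant and 153.7, 125.1 and 165 on non-pregnant arrays, a ratio of 5.01 and a difference of 2.21 ± 0.14. In both, the pregnant arrays lay close together and far above the non-pregnant ones. The dimmest, 1460458_at, read 354.9, 306.9 and 262 on pregnant and 87.7, 110.2 and 27.4 on non-pregnant arrays, a ratio of 4.10 and a difference of 1.96 ± 0.33. Its reading on non-pregnant replicate 3 was below the brightest bacterial control, and the non-pregnant coefficient of variation was 57.0%.

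The suffix of 1437056_x_at marks a probe set with probes that may also bind other transcripts, and this probe set gave the largest Crispld2 difference. It exceeded 1434758_at by 0.59 and 1460458_at by 0.84 on the log2 scale, while 1434758_at exceeded 1460458_at by 0.26. Between arrays, the log2 contrast of the first pair had an SD of 0.15 in pregnant and 0.57 in non-pregnant islets, that of the second pair 0.10 and 0.52, and that of the third 0.14 and 0.98. The gap in the first pair was thus about as large as the spread between non-pregnant arrays, that in the second was larger and that in the third smaller. The mean over the 3 probe sets was a log2 difference of 2.32.

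**Figure D1:**
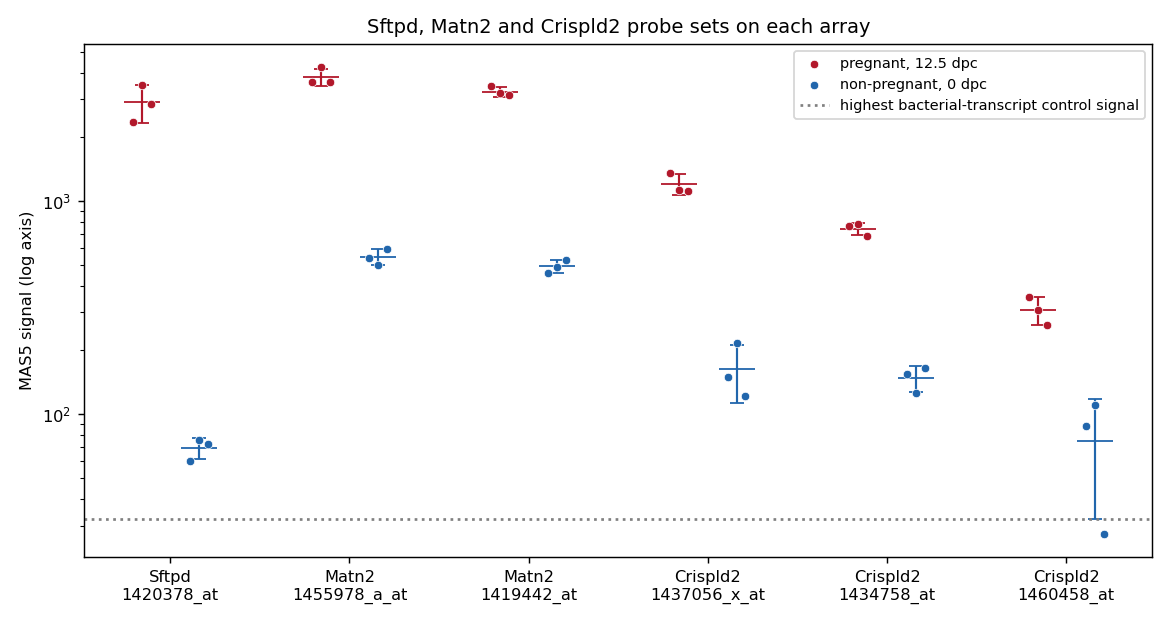
MAS5 signal (log axis) of each Sftpd, Matn2 and Crispld2 probe set on the 3 pregnant (red) and 3 non-pregnant (blue) arrays; points are arrays, horizontal bars means and whiskers SD, and the dotted line is the highest bacterial control signal, 32.3. In all 6 probe sets every pregnant array lies above every non-pregnant array, and the widest scatter is that of 1460458_at in non-pregnant islets.

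In 6 of 6 probe sets the pregnant arrays lay above all non-pregnant arrays, as they did in 11.6% of the 27022 probe sets tested. A log2 difference of at least 2 was seen in 5 of the 6 and in 0.104% of all probe sets. The fit described below called 4.79% of probe sets higher and 4.78% lower. The members' counts follow from how the genes were picked. Ranked by log2 difference among all probe sets tested, Sftpd stood at 3, the probe sets of Crispld2 at 12, 20 and 29, and those of Matn2 at 13 and 14. All 6 passed the filter on dim probe sets, which kept the top 60% by mean log2 value.

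The acinar markers moved in the opposite direction, so the differences were also fitted with a covariate for the acinar markers, their median on each array. The centred covariate was -0.89, -0.61 and -0.22 on pregnant replicates 1, 2 and 3, and 0.94, -0.12 and 0.96 on non-pregnant replicates 1, 2 and 3. Every pregnant array was thus below every non-pregnant array, so this fit cannot cleanly separate the covariate from pregnancy. Its values are given without a conclusion. Sftpd had 5.04 with the covariate and the Matn2 probe sets 2.91 and 2.63, against 5.08, 2.77 and 2.69 without it. For Crispld2 the probe sets parted: 1434758_at had 2.41, 1437056_x_at 2.16 and 1460458_at 1.01. Without the covariate these were 2.21, 2.80 and 1.96, so the dimmest probe set changed the most.

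Across the 6 arrays, the profiles of Matn2 and Crispld2 lay closer to each other than to that of Sftpd. Likeness was taken as the Euclidean distance between mean-centred log2 profiles, so a small distance means a similar size of change as well as a similar order of arrays. Each gene entered by its brightest probe set only, which for Crispld2 was 1437056_x_at, the one with the largest difference. By these probe sets Crispld2 and Matn2 were 0.79 apart, while Sftpd was 2.85 from Matn2 and 2.90 from Crispld2. The 5 genes nearest to Sftpd were the tight junction claudin Cldn8 (1.12), the serotonin-synthesis enzymes Tph1 (1.64) and Tph2 (1.65), the guanylate-binding protein Gbp8 (1.68) and the monooxygenase Fmo1 (1.98).

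Nearest to Matn2 stood Tnfrsf11b (0.47), which encodes osteoprotegerin, another secreted protein. Its probe set averaged 1089 ± 63.2 in pregnant islets. Cym, the stomach protease chymosin (0.60), Ivd, an enzyme of leucine breakdown (0.67), the mitochondrial thioredoxin reductase Txnrd2 (0.69) and the estrogen receptor Esr1 (0.74) followed. Around Crispld2 lay the muscle filament protein gene Neb (0.78), Matn2 itself, Ivd (0.81), the dynein heavy chain Dnah8 (0.93) and Tnfrsf11b (1.00). Ivd and Tnfrsf11b were thus near both. The log2 differences of these genes ran from 2.13 for Dnah8 to 6.17 for Tph1, and such distances among few arrays mostly order genes by the size of their rise.

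**Figure D2:**
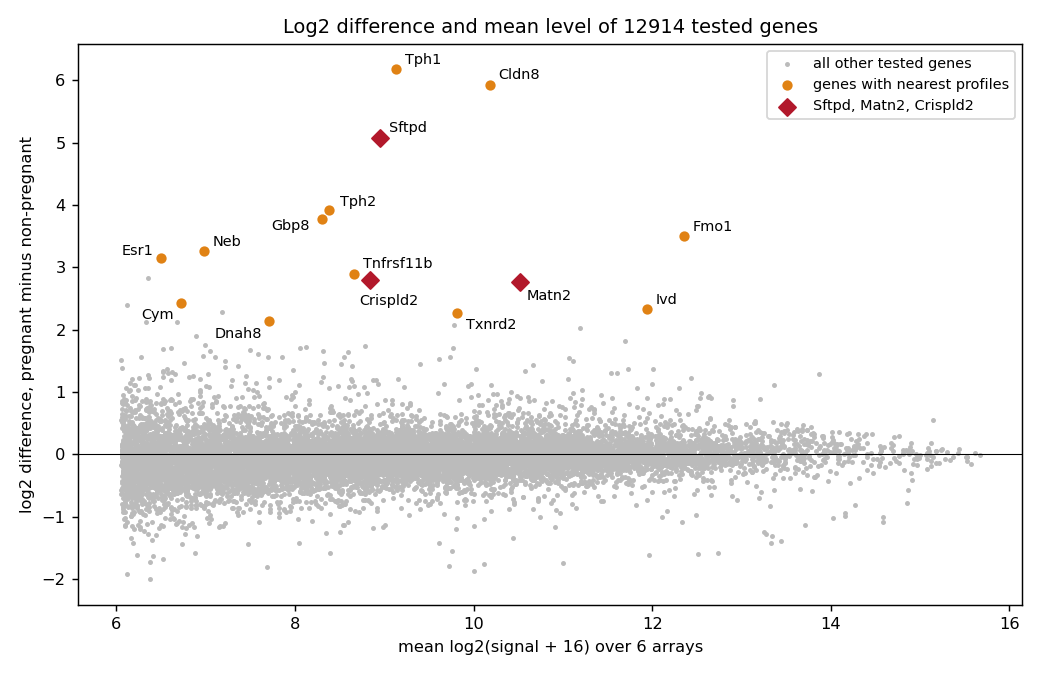
Log2 difference, pregnant minus non-pregnant, against mean log2(signal + 16) over 6 arrays for 12914 tested genes, each by its brightest probe set; red diamonds are Sftpd, Matn2 and Crispld2 and orange points the genes with the nearest profiles. Sftpd lies at 5.08, beside Tph1 at 6.17 and Cldn8 at 5.93, while Matn2 and Crispld2 lie near 2.8 among a small set of genes above 2.

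Genes related to the trio were not chosen by their rise and were tested with limma over all 27022 probe sets, each gene by its brightest probe set, and called at an adjusted p (Benjamini-Hochberg) under 0.05. Among all genes tested, 6.10% were higher and 5.79% lower in pregnancy, and the median log2 difference was -0.04. None of the tested relatives of Sftpd passed as higher. Of 10 other collectins, ficolins and surfactant proteins on the array 5 were bright enough to be tested, of which 0 were higher and 1 lower, with a median of -0.23. Colec11, a soluble collectin, read 26.2 and 30.2 on pregnant replicates 1 and 2, below the brightest bacterial control. Its means were 35.8 ± 13.3 in pregnant and 103 ± 30.3 in non-pregnant islets (-1.19 ± 0.33, adjusted p = 0.043). That call was at the edge: the adjusted p ranged from 0.032 to 0.37 over the alternatives, and it did not pass without pregnant replicate 1 (0.13), pregnant replicate 2 (0.11), non-pregnant replicate 2 (0.15) or non-pregnant replicate 3 (0.14).

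The surfactant proteins that lung cells make together with surfactant protein D were not called. Sftpa1, the gene of the other lung collectin, had 90.2 ± 63.8 in pregnant and 87.7 ± 8.95 in non-pregnant islets (-0.23 ± 0.47, adjusted p = 0.83). Sftpb, a small hydrophobic surfactant protein, had 152 ± 5.24 in pregnant and 212 ± 53.1 in non-pregnant islets (-0.42 ± 0.20, adjusted p = 0.23). Sftpc, another, had 73.8 ± 26.2 in pregnant and 57.4 ± 26.7 in non-pregnant islets (0.31 ± 0.35, adjusted p = 0.67). The mannose-binding lectins were too dim to be tested: Mbl1 reached at most 36.7 and Mbl2 54.5 on a pregnant array, against 55.4 and 113.1 on a non-pregnant array. Over all genes tested 11.9% were called in either direction. Of 10 lung epithelium markers on the array 6 were tested and 0 called. Their summed signals were 1650 to 1806 on pregnant and 1511 to 1642 on non-pregnant arrays, most of it from the lipid transporter Abca3. The defining club cell marker Scgb1a1 stood at 11.0 ± 12.2 in pregnant and 1.87 ± 0.961 in non-pregnant islets, within the range of the bacterial controls.

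Molecules known to bind surfactant protein D were not called. Of 12 on the array 9 were tested and 0 passed in either direction by limma (median -0.19), beside 11.9% of all genes tested. An unadjusted p under 0.05 was reached by 4 of the 9 and by 27.2% of all genes tested, and nothing is read from that count. These were Ly96, the partner of TLR4 (0.23 ± 0.09, adjusted p = 0.14), the chaperone Calr (0.12 ± 0.05, adjusted p = 0.16), the endocytic receptor Lrp1 (-0.32 ± 0.14, adjusted p = 0.19) and the pattern receptor Tlr2 (-0.24 ± 0.11, adjusted p = 0.20). Calr did pass with its probe sets averaged (0.21, adjusted p = 0.034), and at 0.050 without non-pregnant replicate 1.

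Among factors that bind the Sftpd promoter in lung cells, none passed as higher. Of 14 on the array 12 were tested, of which 0 were higher and 3 lower, with a median of -0.19. Over all genes tested the shares were 6.10% higher and 5.79% lower, so with 12 genes nothing is read from the 0 higher. Junb and Jund, the AP-1 subunits, had 1382 ± 156 and 11999 ± 467 in pregnant islets, against 1850 ± 131 and 14549 ± 199 in non-pregnant islets (-0.42 ± 0.09, adjusted p = 0.015, and -0.28 ± 0.05, adjusted p = 0.0050). Foxa2, a forkhead factor of endoderm, was lower by a similar amount (-0.29 ± 0.07, adjusted p = 0.029). Jun itself did not pass (-0.19 ± 0.06, adjusted p = 0.089). With each array centred on its median, 0 of the list were called. The count was 1, Jund, without pregnant replicate 1, pregnant replicate 3 or non-pregnant replicate 2. The lung and thyroid factor Nkx2-1 was too dim to be tested.

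The other matrilins were at or near the limit of the array. Matn4 had 57.2 ± 33.5 in pregnant and 82.4 ± 28.0 in non-pregnant islets (-0.48 ± 0.37, adjusted p = 0.50). Matn1, at 37.5 ± 22.4 and 15.4 ± 15.1, and Matn3, at 19.9 ± 14.9 and 39.3 ± 18.2 in pregnant and non-pregnant islets, were too dim to be tested. Matrix proteins with von Willebrand factor A domains included collagen VI, a heterotrimer with chains called in opposite directions. Col6a3 rose to 2904 ± 112 in pregnant islets, against 1826 ± 219 in non-pregnant islets (0.67 ± 0.09, adjusted p = 5.0e-04). Col6a2 fell by 0.73 ± 0.17 (adjusted p = 0.020), and Col6a1 had -0.51 ± 0.22 (adjusted p = 0.19). Within this list of 12 genes on the array, 6 were tested, 1 was higher and 1 lower, with a median of -0.46. The shares over all genes tested were 6.10% higher and 5.79% lower. The Col6a2 call did not pass without pregnant replicate 2 (0.073), pregnant replicate 3 (0.074) or non-pregnant replicate 1 (0.068), and with its probe sets averaged Col6a2 had -0.45 (adjusted p = 0.13).

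Among matrix proteins that matrilin-2 can be linked to, 12 of 14 on the array were tested. Of these 1 was higher and 2 lower, and the median was -0.08, beside 6.10% higher and 5.79% lower over all genes tested. The small proteoglycan Dcn had 588 ± 148 in pregnant and 1341 ± 57.2 in non-pregnant islets (-1.20 ± 0.14, adjusted p = 2.8e-04), and the collagen chain Col1a2 fell by 0.73 ± 0.11 (adjusted p = 0.0011). The laminin chain Lama5, of basement membranes, rose by 0.49 ± 0.14 (adjusted p = 0.044). It did not pass when any of 5 arrays was left out (0.054 to 0.14, all but non-pregnant replicate 2). With probe sets averaged Dcn had -0.78 (adjusted p = 0.065) and Col1a2 -0.20 (adjusted p = 0.54), and with the acinar covariate 0 of the list were called. That covariate was lower on every pregnant array, and calls over all probe sets also fell with it, so nothing is read from that count. Biglycan, Bgn, had -0.29 ± 0.10 (adjusted p = 0.089).

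Mesenchymal and glial cells are known sources of matrilin-2, and most of their markers were not called. Of 18 stellate cell and fibroblast markers tested 1 was higher (Col6a3) and 4 lower, with a median of -0.40. Over all genes tested, 6.10% were higher and 5.79% lower. The summed signals of these stellate cell and fibroblast markers were lower on every pregnant array (14505 to 18144) than on any non-pregnant array (20137 to 21253). Of 6 Schwann cell and glial markers tested, 1 was higher (Ngfr) and 0 lower, with a median of -0.36. Their summed signals, Ngfr included, overlapped at 735 to 925 on pregnant and 675 to 843 on non-pregnant arrays. Ngfr made up 288 to 340.6 of these sums on pregnant and 70.4 to 115.6 on non-pregnant arrays. The part of these cells in the Matn2 and Crispld2 values was not tested. Endothelial markers (0 higher, 1 lower of 12) and macrophage markers (1 higher, 0 lower of 12) were mostly not called. Of 7 duct markers tested, 1 was higher, 3 were lower and 3 not called.

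Most relatives of Crispld2 in the CAP superfamily were too dim to be tested. Among 10 relatives on the array 2 were tested, the secreted protease-inhibitor-like Pi15 (-0.02 ± 0.28, adjusted p = 0.98) and Glipr1 (-0.05 ± 0.18, adjusted p = 0.91), and 0 were called (also 0 at an unadjusted p under 0.05). The closest paralog, Crispld1, was too dim to be tested, at 34.2 ± 34.8 in pregnant and 48.1 ± 42.1 in non-pregnant islets. Over all genes tested 11.9% were called in either direction, so nothing is read from the 0 of 2 called here.

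Many genes of the glucocorticoid response, which induces Crispld2 in rat lung, were lower in pregnancy. Of 16 tested, 0 were higher and 10 lower, with a median of -0.43. Leaving out the receptor gene Nr3c1 (called lower) and the activating enzyme Hsd11b1 (not called), 9 of 14 were lower, beside 5.79% of all genes tested. Ddit4, an inhibitor of mTOR signalling, had 5305 ± 322 in pregnant and 7660 ± 219 in non-pregnant islets (-0.53 ± 0.06, adjusted p = 2.2e-04). Fkbp5, a cochaperone of the receptor, averaged 979 ± 30.8 in pregnant and 1843 ± 394 in non-pregnant islets (-0.88 ± 0.13, adjusted p = 0.0013). With its 3 probe sets averaged Fkbp5 had -0.37 (adjusted p = 0.13). Errfi1, a feedback inhibitor of EGF receptors, fell by 0.52 ± 0.08 (adjusted p = 0.0015) and the transcription factor Klf9 by 0.37 ± 0.06 (adjusted p = 0.0017). The other 6 called were the receptor gene Nr3c1 and Sgk1, Per1, Dusp1, Mt1 and Mt2. Several of these genes also respond to other stresses, among them tissue dissociation. The count was 5 with each array centred on its median, 6 with the acinar covariate and 1 when eBayes used no variance trend. Calls fell over the whole array too: 4.78% of probe sets were called lower, against 2.16%, 0.651% and 0.777% in those settings.

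**Figure D3:**
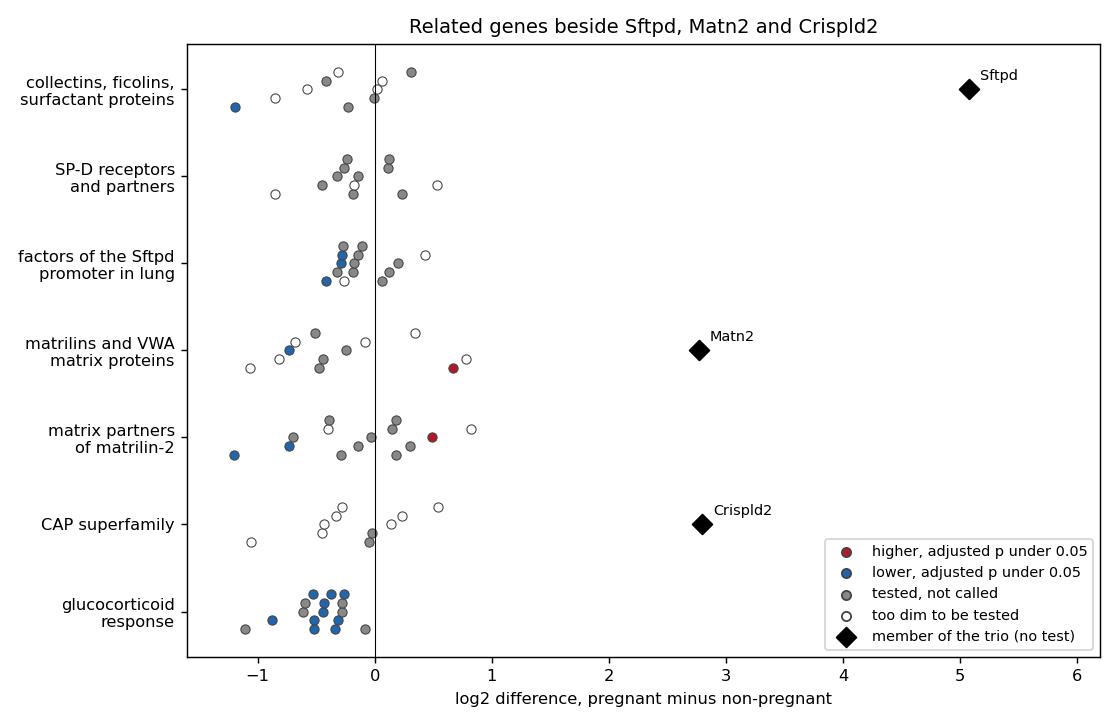
Log2 difference, pregnant minus non-pregnant, of the genes in 7 lists related to Sftpd, Matn2 and Crispld2; filled points were tested (red higher, blue lower, grey not called), open points were too dim, and black diamonds are the 3 genes beside their own families. The listed genes lie between -1.2 and 0.82, while Sftpd, Matn2 and Crispld2 lie at 5.08, 2.77 and 2.80.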

How the data were processed

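The deposited values are intensities per probe set on a linear scale, made by the authors with MAS5, per the submitters' processing notes; the sources used here give no version or settings. The number of arrays limits the precision. From them log2(signal + 16) was computed with no further normalization. After leaving out 64 control probe sets, the 27022 in the top 60% by mean log2 value (signal of about 50.5) were fitted with limma 3.58.1 in R 4.3.3 (eBayes with trend, 2-sided, 4 residual degrees of freedom, no covariate), and p-values were adjusted over all of them. It called 1294 probe sets higher and 1293 lower; with each array centred on its median, 1430 and 583, with no variance trend 393 and 210, with the acinar covariate 359 and 176, and without 1 array 808 and 674 (pregnant replicate 1), 824 and 753 (pregnant replicate 2), 892 and 858 (pregnant replicate 3) and 990 and 817 (non-pregnant replicate 2).

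Names came from the platform annotation: 34958 probe sets had 1 symbol, 932 several and 9211 none; 34754 were found in RefSeq, with 0 symbols changed. Sequences are from RefSeq (GRCm38.p6), whose promoter table matched 1 of the 3 genes. The genes, the lists and the tests were chosen with earlier results of these data known. Genes named are the 3, the 5 nearest profiles of each, up to 4 with the smallest p per related list, and 7 direct paralogs; others are named as counted exceptions after their values were seen. Alternatives were pseudocounts of 1 and 64, quantile normalization, median centring, filters, variance models, a replicate block, the acinar covariate, averaged probe sets and each array left out. Figures used matplotlib 3.10.9.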

Additional observations from a re-analysis of the deposited data

How the results depend on the processing

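All 3 genes kept a positive log2 difference under every alternative run. With a pseudocount of 1 Sftpd had 5.35, and with 64 Sftpd had 4.46 and Crispld2 2.50, as follows from their low non-pregnant signals. With the acinar covariate Matn2 had 2.91 and Crispld2 2.16, and with its probe sets averaged Crispld2 had 2.32. With 1 array left out Sftpd had 4.93 to 5.22, Matn2 2.69 to 2.83 and Crispld2 2.63 to 3.01.

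Counts of related genes called were less stable, and unless given the cause was not tested. Collectins and surfactant proteins had 0 instead of 1 with median centring, the acinar covariate, averaged probe sets, no filter, the top 40% filter (too dim to be included) or no variance trend, and 0 to 1 with 1 array left out. The replicate block also gave 0 there and moved no other list's count by over 1.5 times; with it Jun passed (adjusted p = 0.023), which made 4 promoter factors called. Over all probe sets it called 1211 higher and 1145 lower. Whether same-numbered arrays share more than a number is not stated, and their deviations correlated at -0.03, -0.07 and 0.03. Promoter factors had 0 with median centring, the acinar covariate or no variance trend, and 1 to 4 with 1 array left out. Partners of surfactant protein D had 1 with averaged probe sets and 0 to 1 with 1 array left out. The matrilin list had 1 with the acinar covariate, averaged probe sets or no variance trend, and 1 to 2 with 1 array left out. Matrix partners of matrilin-2 had 0 with the covariate, 1 with averaged probe sets, and 2 to 3 with 1 array left out. The glucocorticoid list had 5, 6 and 1 with median centring, the covariate and no trend, and 8 to 11 with 1 array left out.

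Sign changed for genes near 0: Glipr1 had 0.01, 0.03 and 0.02 with quantile normalization, median centring and the covariate, and -0.19 to 0.12 with 1 array left out; Pi15 had 0.05 and 0.06 with those scalings and -0.18 to 0.14; Sftpc had -0.61 with the covariate; Sftpa1 had -0.64 to 0.45 with 1 array left out. Over the named genes outside the trio (related genes, nearest profiles and called neighbours), 642 of 714 tries kept direction and call. The nearest profiles and called neighbours were picked by their values, so this count does not measure the stability of the related genes alone. Signal near background limits Sftpa1, the pregnant values of Colec11, the non-pregnant values of Sftpd, the matrilins, the CAP relatives and 1460458_at. It also limits the non-pregnant values of Cym, Esr1 and Neb.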

Other observations

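The genes that lie beside the trio in the RefSeq table (GRCm38.p6) were looked at after the values of the 3 genes had been seen. Of the 18 nearest protein-coding genes, 3 on each side of each gene, 10 were tested. Of these 3 were higher, 1 lower and 6 not called, beside 6.10% higher and 5.79% lower over all genes tested. The collectin genes Sftpa1 and Mbl1, next to Sftpd, were among those dim or not called. Beside Matn2, the lysosomal membrane protein gene Laptm4b rose to 12342 ± 146 in pregnant islets, against 9409 ± 364 in non-pregnant islets (0.39 ± 0.05, limma adjusted p = 6.0e-04; 0.067 with no variance trend). The gene 9430069I07Rik lies wholly inside the bounds of Matn2. Its probe set read 288.4, 246.9 and 231.1 on pregnant and 79.4, 120.1 and 97.5 on non-pregnant arrays (1.25 ± 0.20, adjusted p = 0.0020; 0.81 with adjusted p = 0.27 with the acinar covariate). Transcripts of this gene and of Matn2 cannot be told apart by position alone. Near Crispld2, 6430548M08Rik rose to 1419 ± 46.7 in pregnant islets, against 884 ± 96.3 in non-pregnant islets (0.68 ± 0.09, adjusted p = 7.8e-04), while the actin-binding protein gene Cotl1 fell by 0.42 ± 0.07 (adjusted p = 0.0027; 0.084 with no variance trend).

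Among the glial markers, the 1 that rose was Ngfr, the low-affinity neurotrophin receptor, which was singled out after its value was seen. It averaged 320.2 ± 28.2 in pregnant and 95.8 ± 23.1 in non-pregnant islets (1.61 ± 0.20, adjusted p = 3.3e-04), while Sox10, a defining factor of Schwann cells, had -0.39 ± 0.19 (adjusted p = 0.26).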
